A study of Drosophila melanogaster with 18 samples.

Results

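The ELAV family of Drosophila melanogaster comprises 3 genes, elav (FBgn0260400), found in neurons (fne, FBgn0086675) and Rbp9 (FBgn0010263), and they are described here in 18 RNA-seq libraries of larval wing discs. They are the 3 rows, of 17559 genes listed in both deposited count tables, whose FlyBase identifier maps to these symbols. The family was chosen because elav was known to be lower in discs with a dominant negative Tip60 while other neuronal genes were higher, so the differences between the dominant negative and the other arms are given as descriptions, with no p, for the 3 genes and for other neuronal genes. Counts of called genes in the neuronal lists, and statements that a listed gene was called, rose or fell in these contrasts, are descriptions too and not evidence. All 3 genes passed the filter on low counts in every fit.

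Each library held polyadenylated RNA pooled from 40 wing discs of wandering larvae late in the third instar, with 3 libraries in each of 6 groups. The arms were dominant negative Tip60 (Tip60dn), wild type Tip60 (Tip60wt) and a control whose genotype the labels do not describe further, each with the transgene on for 78 h or 48 h. Tip60 encodes a histone acetyltransferase, which works within the NuA4 chromatin complex. In the protocol shared by all groups, a 30 min heat shock at 37 °C produced overlapping clones, animals were held at 18 °C to keep the transgene off, and a shift to 28 °C turned it on, so that a library can mix cells with and without the transgene. The labels name no driver, and nothing in them says whether replicates came from separate crosses, so the p-values measure the spread between these libraries, which may be technical. In pooled discs, fewer cells of a type and less RNA per cell cannot be told apart.

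The libraries held 65277725 to 105716567 counts. Tip60 transcripts averaged 2080 ± 400.1 CPM (counts per 1e+06, SD, n = 3) in Tip60dn, 1577 ± 524 CPM in Tip60wt and 38.9 ± 5.79 CPM in control discs at 78 h. At 48 h the means were 3043 ± 459.8 CPM in Tip60dn, 1627 ± 209 CPM in Tip60wt and 33.7 ± 2.59 CPM in control discs. Both transgenes carry Tip60 sequence, so these counts do not check which of them a library holds, and the Tip60dn mean was above the Tip60wt mean at both durations. All 7 wing disc markers that could be measured were at 1 CPM or more in every group, and their summed level ranged from 1673 to 2020 CPM over the libraries.

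ELAV family proteins are RNA-binding proteins with RNA recognition motifs, the fly relatives of vertebrate Hu proteins. In neurons of the fly, ELAV is a nuclear protein that controls alternative splicing and favours long 3′ untranslated regions, and FNE can take over part of this work. Rbp9 is known in neurons of the fly and in its ovary, where it acts in germ cell differentiation. ELAV protein is a standard marker of neurons, while elav transcripts have also been found in non-neural fly tissues, where the protein is held back after transcription. The wing disc is mostly epithelium, with sensory organ precursors and few neurons at this stage.

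elav lies on the minus strand of chromosome X at 509235 to 523226 (BDGP6, Ensembl release 115), with 10715 bases of exon in 4 blocks. fne lies on the plus strand of chromosome X at 12917477 to 12950417, with 9561 bases of exon in 10 blocks and no exon shared with another gene. Rbp9 lies on the plus strand of chromosome 2L at 2954762 to 2968434, with 8054 bases of exon in 12 blocks. Of the exon bases of elav, 27.9% are also annotated on the same strand as lncRNA:enrr, which is not analysed here, and counts over those bases cannot be assigned to either gene alone. A further 6.3% lie opposite exons of arg, and 1.8% of the exon bases of Rbp9 lie opposite exons of Ts. The libraries were directional, but the strand setting of the counting is not given in the sources used here, so reads of these opposite pairs cannot be told apart with certainty.

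elav was the one member of the family with a substantial level in wing discs. Levels between genes were compared as CPM per kilobase of exon. Over the 18 libraries elav averaged 4.98 on this scale, exceeded by 57.9% of 10941 tested genes with an annotated exon length, whereas Rbp9 averaged 0.164, exceeded by 86.4%, and fne 0.0389, exceeded by 97.2%. elav stood at 2.93 ± 0.294 in Tip60dn, 5.76 ± 0.343 in Tip60wt and 5.98 ± 0.169 in control discs at 78 h (SD, n = 3 each). Rbp9 was at 0.162 ± 0.0537, 0.136 ± 0.0316 and 0.185 ± 0.0398 CPM per kilobase in the Tip60dn, Tip60wt and control discs of that duration. fne was at 0.0461 ± 0.00919, 0.0415 ± 0.017 and 0.0406 ± 0.00572 CPM per kilobase in the same 3 groups. The order elav, Rbp9, fne of the level per kilobase held in each of the 18 libraries.

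**Figure D1:**
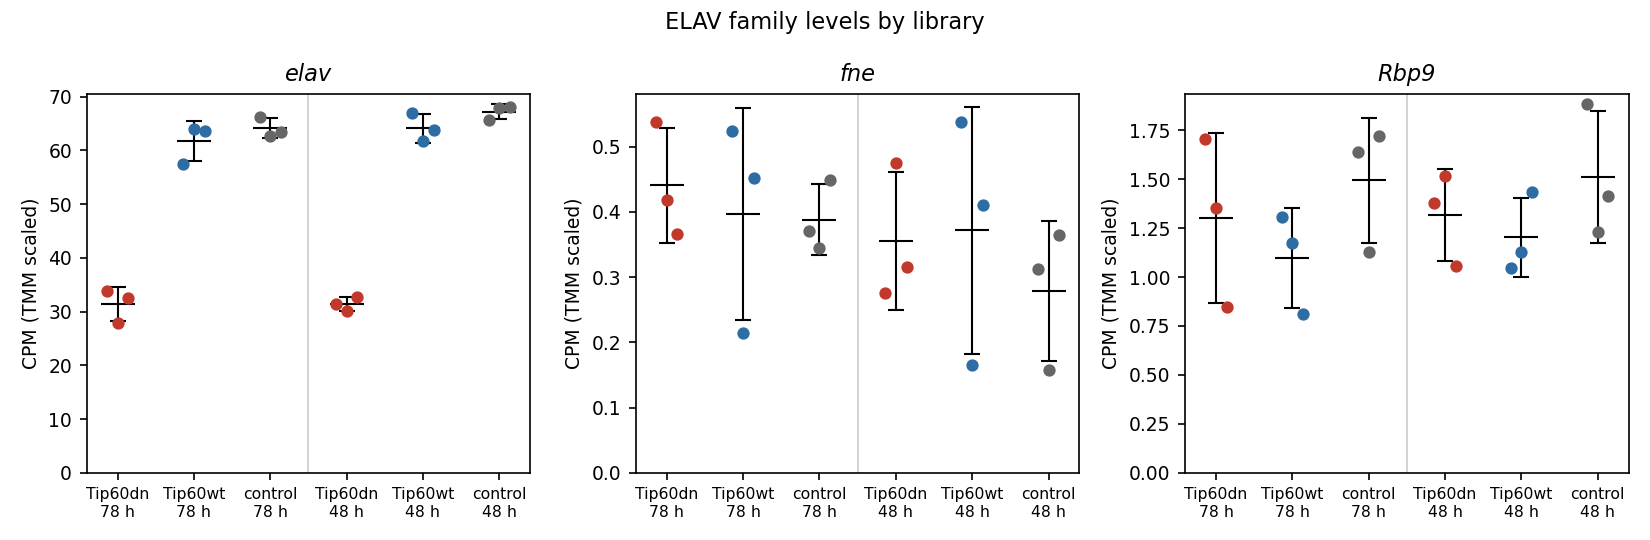
Level of each gene in every library, in CPM with TMM scaling (y axes start at 0 and differ between panels), with 1 point per library, a horizontal line at the mean of 3 libraries and bars of 1 SD. The 6 Tip60dn libraries of elav sit between 27.9 and 33.9 CPM and the other 12 between 57.5 and 68.1 CPM, while the groups of fne and of Rbp9 overlap.

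elav was at about the same low level in both Tip60dn groups and at about the same higher level in the other 4. At 78 h the 3 Tip60dn libraries had 33.9, 27.9 and 32.6 CPM, the Tip60wt libraries 57.5, 64.0 and 63.7 CPM, and the control libraries 66.2, 62.7 and 63.5 CPM. At 48 h the Tip60dn libraries had 31.4, 30.1 and 32.8 CPM, the Tip60wt libraries 67.0, 61.7 and 63.7 CPM, and the control libraries 65.6, 67.8 and 68.1 CPM. Every Tip60dn library was below every other library, and the Tip60wt and control libraries overlapped. These levels rest on 1999 to 3590 counts per library in Tip60dn and on 4489 to 6839 in the other arms.

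The group means of elav, from high to low, were 67.2 ± 1.38 CPM in control at 48 h, 64.1 ± 2.68 CPM in Tip60wt at 48 h, 64.1 ± 1.80 CPM in control at 78 h, 61.7 ± 3.67 CPM in Tip60wt at 78 h, 31.4 ± 3.15 CPM in Tip60dn at 78 h and 31.4 ± 1.32 CPM in Tip60dn at 48 h (SD, n = 3 each). Each neighbouring pair in this order had overlapping libraries, except the step to Tip60dn.

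The log2 fold change of elav in Tip60dn relative to Tip60wt discs was -0.97 at 78 h (SE 0.07) and -1.03 at 48 h (SE 0.05). Relative to control discs it was -1.02 at 78 h (SE 0.07) and -1.09 at 48 h (SE 0.05). The comparisons with Tip60wt and with control share the Tip60dn libraries. Groups without overlap in the lower direction were found for 1 of the 3 members, elav, in each comparison, beside 23.7% of the genes tested for Tip60dn against Tip60wt at 78 h and 24.4% at 48 h, and 28.1% against control at 78 h and 24.6% at 48 h. Since these contrasts chose the family, nothing is read from those shares. By size, 184 of 10598 genes had a lower log2 fold change than elav against Tip60wt at 78 h (1.74%) and 287 of 10693 at 48 h (2.68%). Against control the numbers were 166 at 78 h (1.57%) and 205 at 48 h (1.92%). Of the 5398 genes that averaged 20 CPM or more, 14 and 21 genes lay below elav against Tip60wt at 78 h and 48 h, and 15 and 12 against control. The family was chosen because elav was lower in these contrasts, so nothing is read from its ranks either.

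**Figure D2:**
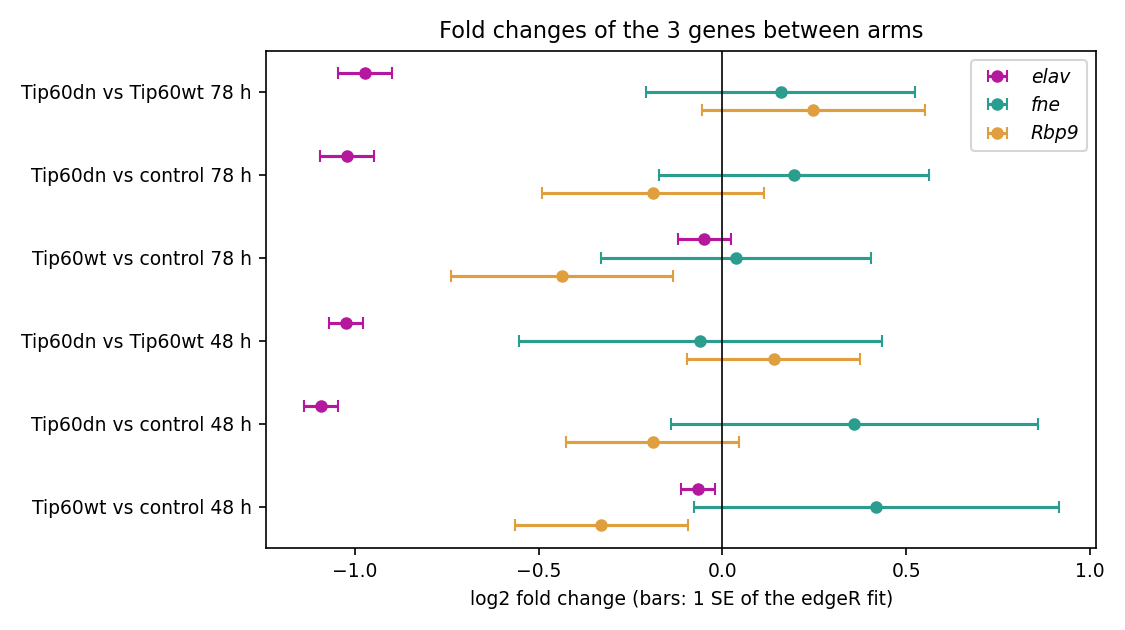
Log2 fold change (x axis) of elav, fne and Rbp9 in the 6 comparisons between arms (y axis), with bars of 1 SE from the edgeR fit. elav lies between -1.09 and -0.97 in the 4 comparisons of Tip60dn and at -0.05 and -0.07 for Tip60wt against control, and the wider bars of fne and Rbp9 go with their lower counts.

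fne, whose protein shares splicing targets with ELAV in fly neurons, was counted 15 to 57 times per library. At 78 h it had 57, 30 and 29 counts in Tip60dn libraries, 45, 20 and 35 in Tip60wt libraries, and 33, 33 and 34 in control libraries. At 48 h it had 25, 37 and 20 counts in Tip60dn libraries, 55, 16 and 29 in Tip60wt libraries, and 28, 15 and 31 in control libraries. The groups overlapped in every comparison between arms. Scaled for depth, its mean was 0.441 ± 0.0879 CPM in Tip60dn, 0.397 ± 0.163 CPM in Tip60wt and 0.388 ± 0.0547 CPM in control discs at 78 h (SD, n = 3 each). At 48 h it was 0.356 ± 0.106 CPM in Tip60dn, 0.372 ± 0.19 CPM in Tip60wt and 0.278 ± 0.107 CPM in control discs. The log2 fold changes of fne in Tip60dn were 0.16 against Tip60wt (SE 0.37) and 0.19 against control (SE 0.37) at 78 h, and -0.06 (SE 0.49) and 0.36 (SE 0.50) at 48 h, each smaller than its SE. Among the same-numbered Tip60dn and Tip60wt libraries at 78 h, which deviated together over all genes, fne was higher in the Tip60dn library in 2 of 3 pairs. With the replicate number as a block over all libraries of that duration, control included, its log2 fold change was 0.21 (SE 0.37), which is not an estimate from these pairs alone. A change of fne as large as that of elav would be about 2 of these standard errors at 48 h, so the depth limits what can be said of it.

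Rbp9, the member with a known role in the fly ovary, was counted 63 to 181 times per library. At 78 h its level was 1.71, 1.35 and 0.846 CPM in Tip60dn libraries, 1.31, 1.18 and 0.813 CPM in Tip60wt libraries, and 1.64, 1.13 and 1.72 CPM in control libraries. At 48 h it was 1.38, 1.52 and 1.06 CPM in Tip60dn libraries, 1.05, 1.13 and 1.43 CPM in Tip60wt libraries, and 1.88, 1.23 and 1.41 CPM in control libraries. All groups overlapped, and control discs had the highest mean at both durations. The log2 fold changes of Rbp9 in Tip60dn were 0.25 against Tip60wt (SE 0.30) and -0.19 against control (SE 0.30) at 78 h, and 0.14 (SE 0.24) and -0.19 (SE 0.23) at 48 h. Rbp9 was higher in the Tip60dn library in 3 of 3 same-numbered pairs of Tip60dn and Tip60wt at 78 h. With the replicate number as a block over all libraries of that duration, control included, its log2 fold change was 0.23 (SE 0.28), which is not an estimate from these pairs alone.

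The share of each gene in the family is a further description of the same values, since a lower elav lowers its share, and nothing is tested on it. elav supplied 93.4% ± 1.84 of the summed CPM per kilobase of the 3 genes in Tip60dn, 97.0% ± 0.769 in Tip60wt and 96.4% ± 0.656 in control discs at 78 h (SD, n = 3 each). At 48 h its share was 93.6% ± 1.35 in Tip60dn, 97.0% ± 0.477 in Tip60wt and 96.7% ± 0.784 in control discs. The share of Rbp9 averaged 5.15% in Tip60dn, 2.31% in Tip60wt and 2.98% in control discs at 78 h, and 5.24% in Tip60dn, 2.43% in Tip60wt and 2.90% in control discs at 48 h. elav remained the predominant family transcript in every library, with a lowest share of 92.2%. This share was calculated over all annotated exons, and elav exons shared with lncRNA:enrr are among them.

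Tip60wt against control was a contrast that played no part in choosing the family, and none of the 3 genes was called in it, at an adjusted p (Benjamini-Hochberg, edgeR quasi-likelihood test, two-sided) under 0.05. In the same contrast 4.07% of 10598 genes were called at 78 h, 2.09% higher and 1.97% lower, and 3.57% of 10693 at 48 h, 1.73% higher and 1.84% lower. The log2 fold change of elav in Tip60wt was -0.05 at 78 h (95% interval -0.21 to 0.11, edgeR adjusted p = 0.753) and -0.07 at 48 h (-0.17 to 0.04, adjusted p = 0.484). For fne it was 0.04 at 78 h (95% interval -0.79 to 0.86, edgeR adjusted p = 0.971) and 0.42 at 48 h (-0.70 to 1.53, adjusted p = 0.706). For Rbp9 it was -0.44 at 78 h (95% interval -1.12 to 0.24, edgeR adjusted p = 0.458) and -0.33 at 48 h (-0.86 to 0.20, adjusted p = 0.507). The intervals of elav were the narrowest of the 3 at both durations, and those of fne and Rbp9 do not exclude sizeable differences.

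Expression for 78 h rather than 48 h was set beside each arm, with the reservation that the durations come as separate tables and anything handled together with a duration goes with it. elav differed by 1.55e-03 on the log2 scale between 78 h and 48 h in Tip60dn (95% interval -0.13 to 0.14, edgeR adjusted p = 0.998), by -0.06 in Tip60wt (-0.19 to 0.08, adjusted p = 1) and by -0.07 in control discs (-0.20 to 0.07, adjusted p = 0.999). None of the members was called in any arm, beside 0.134% of 11173 genes in Tip60dn and 0% in Tip60wt and in control. For Tip60wt and control, edgeR left 455 and 568 genes at an unadjusted p under 0.05, and DESeq2 called 6 and 22. The log2 differences of fne were 0.31 in Tip60dn (95% interval -0.63 to 1.25), 0.09 in Tip60wt (-0.85 to 1.03) and 0.48 in control (-0.47 to 1.42). Those of Rbp9 were -0.02 in Tip60dn (95% interval -0.60 to 0.57), -0.13 in Tip60wt (-0.71 to 0.46) and -0.02 in control (-0.60 to 0.57).

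The difference between arms was also compared between durations by an interaction term over all 18 libraries. The elav difference of Tip60dn from Tip60wt was 0.06 less negative at 78 h than at 48 h on the log2 scale (95% interval -0.13 to 0.25, edgeR adjusted p = 0.952), and that from control was 0.07 less negative (-0.12 to 0.26, adjusted p = 0.941). For the difference from Tip60wt the interval was -1.10 to 1.55 for fne and -0.71 to 0.94 for Rbp9, and for the difference from control it was -1.50 to 1.16 for fne and -0.82 to 0.82 for Rbp9. No member was called, beside 0% of 11173 genes in these 2 interactions and in that of Tip60wt against control, with 623, 777 and 461 genes at an unadjusted p under 0.05 in edgeR and 4, 32 and 3 calls by DESeq2.

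The genes on either side of elav on chromosome X, svr and CG4293, differed much less between arms than elav. svr, which encodes a carboxypeptidase and ends 163 bases from elav on the other strand, had 195 ± 5.64 CPM in Tip60dn, 209.7 ± 9.53 CPM in Tip60wt and 212.7 ± 9.08 CPM in control discs at 78 h (SD, n = 3 each). Its log2 fold change in Tip60dn was -0.11 against Tip60wt and -0.12 against control at 78 h, neither called, and -0.22 (edgeR adjusted p = 7.97e-03) and -0.14 (adjusted p = 0.0456) at 48 h, both called. CG4293, 4715 bases beyond the other end of elav, had log2 fold changes between -0.10 and 0.03 in the 4 comparisons of Tip60dn and was called in none. arg, an arginase gene that overlaps elav on the opposite strand, had 11 to 60 counts per library in all. Of the arg exon bases, 61.2% lie opposite exons of elav or CG4293. The strand setting of the counting is not given, so these few counts cannot be assigned to arg with certainty. Whether reads of elav are among the arg counts was not tested. arg was called lower against control at 48 h (log2 fold change -1.13, SE 0.40, edgeR adjusted p = 0.0487) and not in the other 3, where its log2 fold changes were -1.08, -0.86 and -0.46.

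**Figure D3:**
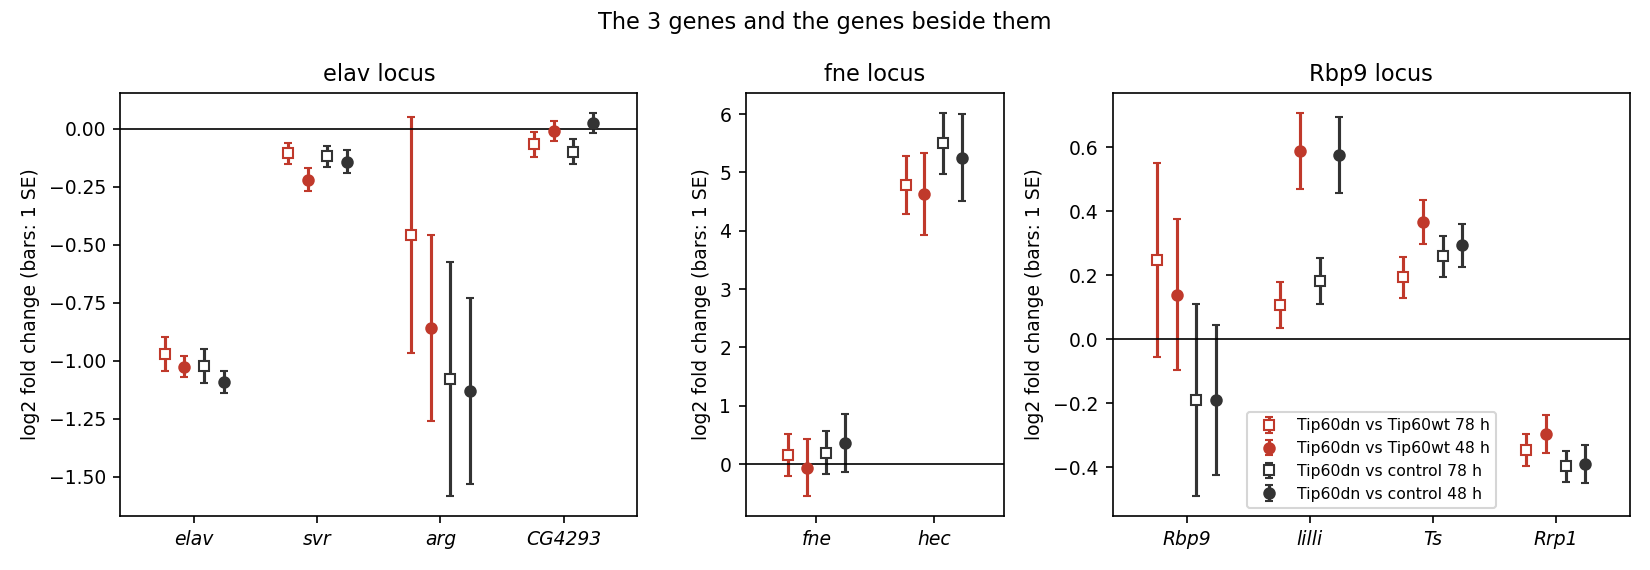
Log2 fold change (y axis, scale differs between panels) of elav, fne and Rbp9 and of the genes next to or overlapping them (x axis) in the 4 comparisons of Tip60dn, with bars of 1 SE. elav lies near -1 beside svr and CG4293 between -0.22 and 0.03 and arg, which has few counts, between -1.13 and -0.46. fne lies near 0 beside hec between 4.63 and 5.50, and Rbp9 has bars across 0 beside called changes of Ts and Rrp1.

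Beside fne, hec was far higher in Tip60dn discs. hec encodes a G protein-coupled receptor known for its role in fly courtship, and it ends 19 bases from fne on the other strand. It had 264, 201 and 257 counts in Tip60dn, 12, 5 and 9 in Tip60wt, and 10, 2 and 4 in control libraries at 78 h. At 48 h it had 156, 123 and 128 counts in Tip60dn, 6, 2 and 10 in Tip60wt, and 1, 2 and 9 in control libraries. The log2 fold change of hec in Tip60dn discs was 4.78 against Tip60wt (SE 0.50) and 5.50 against control (SE 0.52) at 78 h, and 4.63 (SE 0.71) and 5.26 (SE 0.74) at 48 h. hec passed the filter on low counts only through the Tip60dn libraries, where it is high, so no p is given for it. The counts of fne overlapped between all arms in the same libraries. The other gene beside fne, lncRNA:CR45626, had 2 counts in 1 library and 0 in the other 17, and was not tested.

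Around Rbp9, neighbours changed by small amounts. Ts, which encodes thymidylate synthase and overlaps the end of Rbp9 on the other strand by 142 exon bases, rose in Tip60dn discs in all 4 comparisons, by 0.19 and 0.26 on the log2 scale against Tip60wt and control at 78 h and by 0.37 and 0.29 at 48 h (edgeR adjusted p between 3.20e-03 and 0.0386). Rrp1, a DNA repair endonuclease gene, fell in all 4, with log2 fold changes of -0.35 and -0.40 at 78 h and -0.30 and -0.39 at 48 h (edgeR adjusted p between 2.98e-04 and 4.94e-03). lilli, a nuclear protein gene 356 bases from Rbp9 on the same strand, was called at 48 h (0.59 against Tip60wt and 0.58 against control, edgeR adjusted p = 5.07e-03 and 4.70e-03) and had log2 fold changes of 0.11 and 0.18 at 78 h, not called.

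Synaptic and axonal genes are given beside elav as a description, since their higher level in Tip60dn discs was part of what chose the family. Of 17 tested genes of a list of 24, 11 were called higher and 0 lower against Tip60wt at 78 h, beside 17.6% of all genes tested called higher and 19.2% lower, with a median log2 fold change of 0.76 against 0.01 over all genes tested. Against control at 78 h 11 were called higher and 0 lower, beside 22.4% called higher and 21.7% lower, with a median of 0.84 against 0.03. At 48 h 10 were called higher and 0 lower against Tip60wt, beside 18.0% called higher and 17.7% lower (median 0.74 against 0.01), and 8 higher and 0 lower against control, beside 19.6% and 19.4% (median 0.79 against 0.02). For Tip60wt against control 2 rose and 2 fell at 78 h, and 1 rose and 1 fell at 48 h, beside the shares of called genes given for that contrast above. Nothing is read from the Tip60dn counts of this list. Earlier results of these data were known when the lists were set, so their direction is not independent evidence.

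The 3 members of the list with the highest CPM were unc-13, Nrg and Fas2. unc-13, which primes synaptic vesicles for release, averaged 1290 ± 18.0 CPM in Tip60dn, 609.4 ± 15.8 CPM in Tip60wt and 433.2 ± 12.4 CPM in control discs at 78 h, and 25.2% of its exon bases lie opposite other annotated genes. Its log2 fold change in Tip60dn at 78 h was 1.08 against Tip60wt and 1.58 against control. In Tip60wt against control, a contrast the choice did not use, it rose by 0.50 (edgeR adjusted p = 5.13e-05). Nrg, a cell adhesion gene whose neuronal splice form depends on ELAV in the fly, had log2 fold changes between -0.06 and -0.01 in the 4 comparisons of Tip60dn. Fas2, another adhesion gene, had log2 fold changes of 0.17 and 0.09 against Tip60wt and control at 78 h, and of 0.12 and 0.07 at 48 h.

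Appl and Snap25 were picked from the same list after their values were seen. Appl, the fly relative of the amyloid precursor protein gene, lies on chromosome X at 530501 to 579044, past CG4293 on the far side from svr. It averaged 13.9 ± 1.03 CPM in Tip60dn, 3.38 ± 0.241 CPM in Tip60wt and 3.14 ± 0.346 CPM in control discs at 78 h, with log2 fold changes of 2.04 against Tip60wt and 2.16 against control. Snap25, which encodes a synaptic SNARE protein, averaged 12.8 ± 2.16 CPM in Tip60dn, 1.84 ± 0.8 CPM in Tip60wt and 1.18 ± 0.229 CPM in control discs at 78 h, with log2 fold changes of 2.80 and 3.45.

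Genes of other neuronal transcription factors and RNA-binding proteins are described in the same way. Of 15 tested, 3 were called higher and 1 lower against Tip60wt at 78 h, and 2 higher and 2 lower against control, with median log2 fold changes of 0.06 and 0.05. At 48 h 1 was called higher and 1 lower against Tip60wt, and 2 higher and 2 lower against control, with medians of -0.01 and 0.04. These shares were near or below the 17.6% to 22.4% of all genes tested that were called higher and the 17.7% to 21.7% called lower over the 4 comparisons. Syp, brat and mub, which encode RNA-binding proteins, had the highest CPM of the list, and Syp had a log2 fold change of 0.22 against Tip60wt at 78 h. bru3, an RNA-binding protein gene of the Bruno family, was picked after its values were seen. It averaged 12.1 ± 1.39 CPM in Tip60dn, 0.316 ± 0.0902 CPM in Tip60wt and 0.412 ± 0.107 CPM in control discs at 78 h. Its log2 fold changes in Tip60dn against Tip60wt and control were 5.26 and 4.89 at 78 h, and 4.88 and 4.22 at 48 h.

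**Figure D4:**
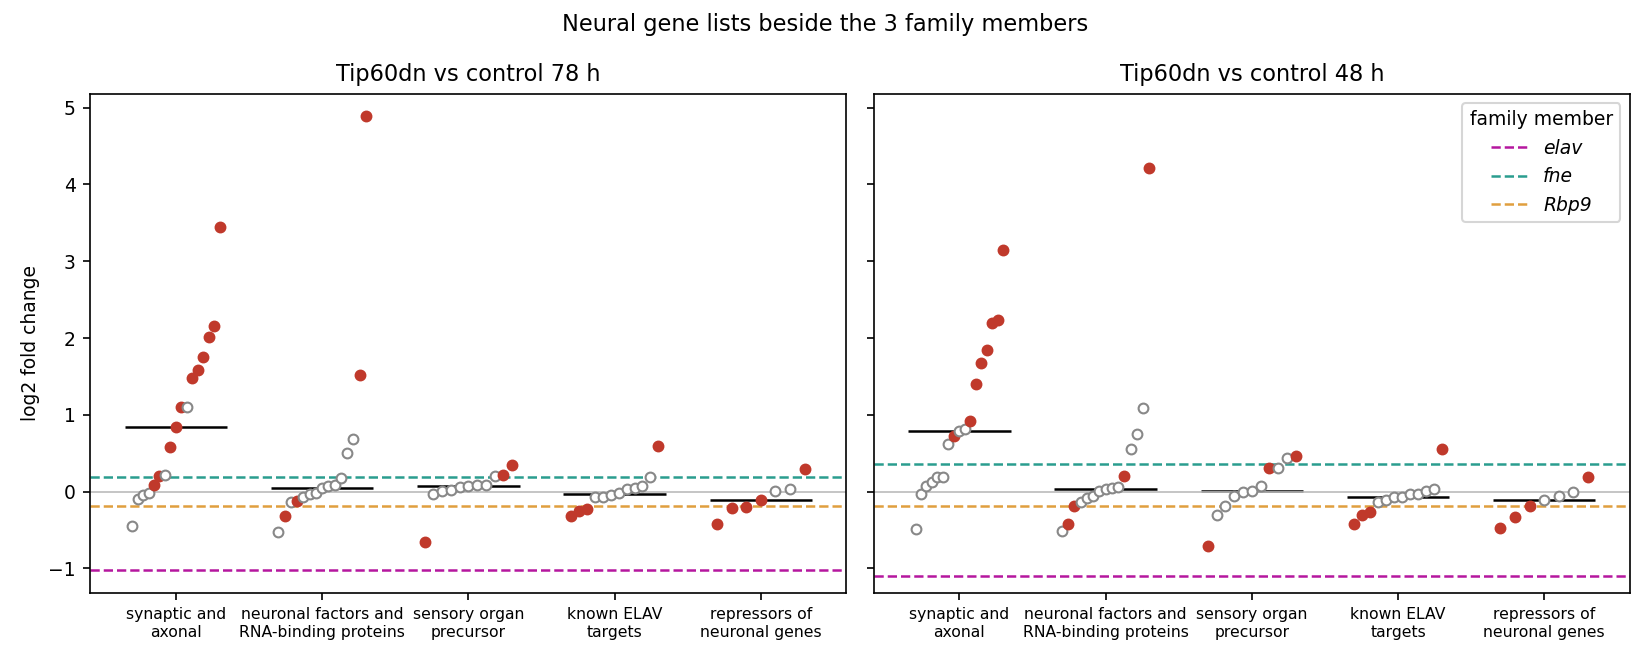
Log2 fold change (y axis) in Tip60dn against control at 78 h and 48 h for every tested gene of 5 lists (x axis), with filled points for genes called at an edgeR adjusted p under 0.05, open points for the others, a black bar at the median of a list and dashed lines at elav, fne and Rbp9. elav, at -1.02 and -1.09, lies below every gene drawn, and the medians of the synaptic list are 0.84 and 0.79.

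Sensory organ precursor genes, which mark the cells from which the first neurons of the disc arise, were called in both directions. Of 11 tested, 3 rose and 1 fell against Tip60wt and 2 rose and 1 fell against control at 78 h, and 2 rose and 1 fell in both comparisons at 48 h, beside the 17.6% to 22.4% of all genes called higher and 17.7% to 21.7% called lower. The median log2 fold changes were -0.05 against Tip60wt and 0.07 against control at 78 h, and -0.21 and 0.01 at 48 h. The proneural genes sc and ac rose in all 4 comparisons, sc by 0.22 to 0.30 and ac by 0.27 to 0.47 on the log2 scale. numb, an inhibitor of Notch signalling, had log2 fold changes of 0.02 to 0.15 and was called in none. The 1 gene that fell in each comparison was insv, a corepressor gene active in these precursors, with log2 fold changes of -0.50 and -0.66 at 78 h and -0.51 and -0.71 at 48 h.

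Genes whose transcripts ELAV is known to process in the fly showed small changes in total count, and counts per gene do not show splicing or 3′ end choice. Of 12 tested besides fne, 1 was called higher and 2 lower against Tip60wt, and 1 higher and 3 lower against control, at 78 h and at 48 h alike, so the share called higher was below that of all genes tested and the share called lower was near it. The median log2 fold changes were -0.05 against Tip60wt and -0.03 against control at 78 h, and -0.12 and -0.07 at 48 h. The 1 called higher was Dscam1, a neuronal recognition gene, with log2 fold changes of 0.45 and 0.60 at 78 h and 0.48 and 0.55 at 48 h. Hrb27C, an hnRNP gene and the most abundant on the list, fell in all 4, by 0.12 to 0.27 in size, and Adar, the RNA editing enzyme gene, fell in all 4, by 0.22 to 0.42 in size. arm, the fly beta-catenin gene, and hth, a homeodomain gene, were called in none.

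Repressors of neuronal genes are given as a description too. Of 7 tested, 1 rose and 3 fell against Tip60wt and 1 rose and 4 fell against control at 78 h, and 0 rose and 3 fell against Tip60wt and 1 rose and 3 fell against control at 48 h. Over the 4 comparisons 17.6% to 22.4% of all genes tested were called higher and 17.7% to 21.7% lower. Nothing is read from the counts of this list. The median log2 fold changes were -0.09 and -0.11 at 78 h and -0.11 and -0.10 at 48 h. Of the 7 genes, 1 had a value above 0 against Tip60wt and 3 against control at 78 h, and 1 in each comparison at 48 h. CoRest, a corepressor with a role in silencing neuronal genes, averaged 145.2 ± 9.31 CPM in Tip60dn, 216.1 ± 17.2 CPM in Tip60wt and 195.9 ± 7.69 CPM in control discs at 78 h. It fell by 0.57 and 0.43 at 78 h and by 0.61 and 0.47 at 48 h on the log2 scale. Sin3A, a histone deacetylase scaffold gene, fell in all 4, with log2 fold changes of -0.33 to -0.20. ttk, which represses neuronal fate, rose in 3 of the 4, by 0.28 and 0.30 at 78 h and by 0.20 against control at 48 h, and had 0.14 against Tip60wt at 48 h, which was not called.

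Markers of other cell types were measured in the same libraries, and their part in the levels of the family was not tested. Glial markers fell in 1 of 8 tested against Tip60wt and 2 of 8 against control at 78 h and in 1 of 8 in both at 48 h, and none rose, beside 17.7% to 21.7% of all genes tested called lower. Their median log2 fold changes were -0.13 against Tip60wt and -0.27 against control at 78 h, and -0.41 and -0.43 at 48 h. Of the 8 genes, 3 and 2 had a value above 0 at 78 h, and 1 and 2 at 48 h. Their summed level was 268.2 to 290 CPM in the Tip60dn libraries of 78 h, 347.8 to 378.6 CPM in Tip60wt and 360.3 to 372.7 CPM in control. The difference of the sums lies mostly in nrv2, which averaged 180.1 ± 8.22 CPM in Tip60dn, 255.9 ± 16.5 CPM in Tip60wt and 257.1 ± 1.99 CPM in control discs at 78 h, and fell by 0.45 to 0.53 on the log2 scale in the 4 comparisons. loco, the next by CPM, averaged 77.3 ± 1.999 CPM in Tip60dn, 83.1 ± 4.55 CPM in Tip60wt and 80.0 ± 3.48 CPM in control discs at 78 h and was called in none. repo and gcm are given for their role in glia and were picked after their values were seen. repo, which defines glia, was at 0.236, 0.223 and 0.177 CPM in Tip60dn, 0.175, 0.182 and 0.129 CPM in Tip60wt and 0.224, 0.188 and 0.238 CPM in control libraries at 78 h. gcm, which starts glial fate, was at 0.226, 0.265 and 0.227 CPM in Tip60dn, 0.117, 0.0427 and 0.142 CPM in Tip60wt and 0.247, 0.115 and 0.185 CPM in control libraries at 78 h. The Tip60dn libraries overlapped the control libraries for both genes. At such low levels nothing is read from either gene. Neuroblast and brain markers rose in 3 of 6 against Tip60wt and 2 of 6 against control at 78 h, and in 1 of 6 in both at 48 h, beside 17.6% to 22.4% of all genes tested called higher. Their sums were 31.8 to 33.8 CPM in Tip60dn, 22.5 to 24.2 CPM in Tip60wt and 22.1 to 25.2 CPM in control libraries at 78 h. insc was called higher in both comparisons at 78 h (0.42 and 0.43 on the log2 scale), dpn in none of the 4, and ey in all 4, with log2 fold changes of 2.33 to 2.98. The genes listed as eye disc markers, among them eya and so, were called in 0 of 5 in each of these 4 comparisons. Their sums were 45.4 to 60.9 CPM in Tip60dn, 41.2 to 58.7 CPM in Tip60wt and 46.2 to 47.4 CPM in control at 78 h. This list leaves out ey and toy, which were counted with the brain markers, so it does not cover every eye gene.

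Hemocyte markers rose in 8 of 8 tested against Tip60wt and 6 of 8 against control at 78 h, and in 8 of 8 and 7 of 8 at 48 h. Over the 4 comparisons, 17.6% to 22.4% of all genes tested were called higher and 17.7% to 21.7% lower. The basement membrane collagen genes Col4a1 and vkg, those with the highest CPM, rose in all 4, by 0.54 to 0.74 and by 0.72 to 0.92 on the log2 scale. At 78 h the libraries of both genes overlapped between Tip60dn and each other arm. Tip60dn replicate 1 was at 196.1 CPM for Col4a1 and 80.8 CPM for vkg, within the control ranges of 175 to 205.3 and 69.0 to 85.6 CPM. The summed level of the list was 408.7 to 820.5 CPM in Tip60dn, 301.5 to 393.5 CPM in Tip60wt and 373.3 to 424.7 CPM in control libraries at 78 h, and 629.2 to 902.3 CPM in Tip60dn, 308.6 to 368.5 CPM in Tip60wt and 319 to 407.4 CPM in control libraries at 48 h. Genes listed as germline markers, because Rbp9 acts in the fly ovary, rose in 3 of 5 against Tip60wt at both durations and in 1 of 5 against control. Sxl fell against Tip60wt at 48 h and against control at 78 h. It averaged 336.2 CPM in Tip60dn, 363 CPM in Tip60wt and 371.6 CPM in control discs at 78 h, so in these wing discs it cannot be read as a mark of germ cells. piwi rose against Tip60wt, by 0.73 at 78 h and 0.97 at 48 h on the log2 scale, and had 4.15e-03 and -0.12 against control. Wing disc markers rose in 1 of 7 against Tip60wt at both durations, and in 3 of 7 at 78 h and 2 of 7 at 48 h against control, and none fell. The germline and wing disc counts stand beside the same 17.6% to 22.4% of all genes called higher and 17.7% to 21.7% called lower. sd was called in none of the 4, and nub rose by 0.17 against control at 78 h.

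For each family member, the 5 genes with the most similar profile were taken by Pearson correlation of log2 CPM over the 18 libraries among the genes that averaged 1 CPM or more, 8007 for elav and Rbp9 and 8008 for fne. For elav these were miple1, a heparin-binding growth factor gene (r = 0.982), Cdk4, a cyclin-dependent kinase gene (r = 0.980), Cen (r = 0.979), tun (r = 0.978) and CG9062 (r = 0.978). The 18 libraries form 2 sets for elav, 6 of Tip60dn and 12 others, and r was lower within each set than over all 18. Within the 6 Tip60dn libraries r was 0.788 for miple1, 0.178 for Cdk4, 0.588 for Cen, 0.734 for tun and 0.299 for CG9062. Within the 12 others r was 0.076 for miple1, 0.450 for Cdk4, 0.437 for Cen, 0.530 for tun and 0.476 for CG9062. miple1 averaged 78.5 ± 5.64 CPM in Tip60dn, 125.2 ± 4.68 CPM in Tip60wt and 128.7 ± 4.11 CPM in control discs at 78 h, a smaller difference than that of elav.

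**Figure D5:**
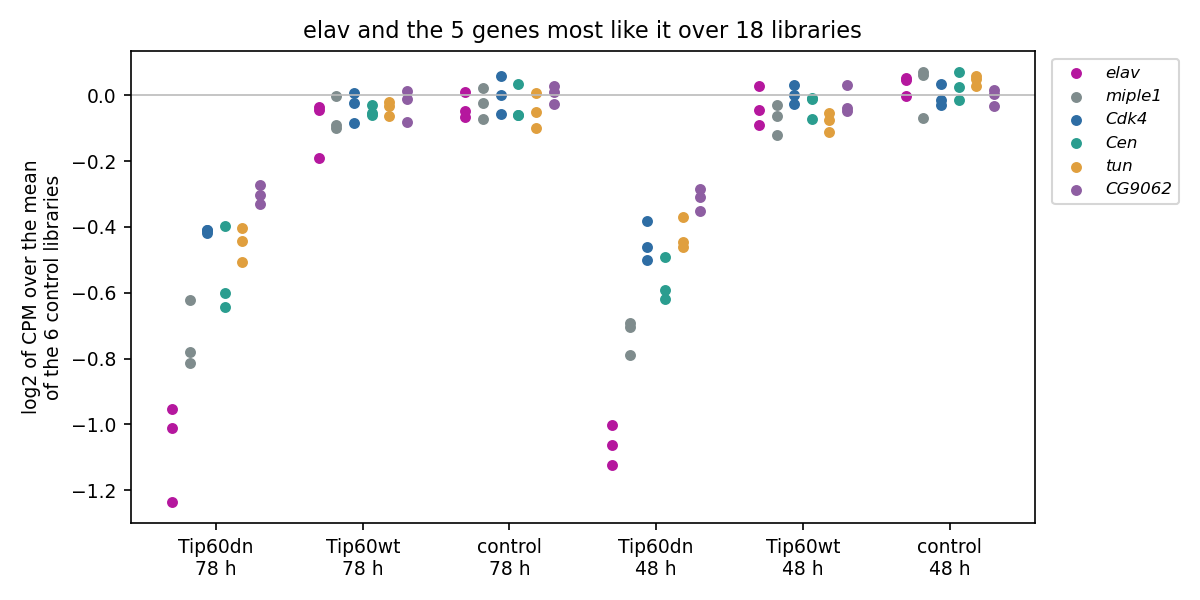
Level of elav and of the 5 genes most like it in each library, as log2 of CPM over the mean of the 6 control libraries (y axis), by group (x axis), with 1 point per library. In the Tip60dn groups all 6 genes lie below 0 in every library and elav lies lowest.

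For fne the most similar genes were nmo, a kinase gene of Wnt signalling (r = 0.737), CG4702 (r = 0.737), CG9593 (r = 0.711), Gmppb (r = 0.707) and lute (r = 0.703). For Rbp9 they were osi (r = 0.757), sds22, a phosphatase regulator gene (r = 0.751), CG4278 (r = 0.724), p38a, a stress kinase gene (r = 0.721) and CG13887 (r = 0.716). No gene appears for more than 1 member. Exons of other genes lie opposite 18.1% of the exon bases of CG9062, 50.6% of CG9593, 30.9% of sds22, 6.7% of Cdk4 and 6.9% of CG4278. With at most 57 counts of fne and at most 181 of Rbp9 per library, these correlations are weak descriptions of the libraries and share depth and library with the counts they describe.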

How the data were processed

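Polyadenylated RNA of 18 wing disc libraries was sequenced, and the authors deposited whole-number counts per FlyBase gene in 2 tables, 1 per duration, with 17559 genes in each. The submitters' processing notes name BDGP6, FastQC, featureCounts, limma and edgeR 3.13.4. Neither aligner, strand setting nor annotation release is given in the sources used here. Symbols and exon lengths came from Ensembl release 115, which held 17253 of the identifiers. The 306 unmatched identifiers took 5.70% to 6.01% of the counts and stayed in the fits without a name.

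Counts were tested with edgeR 4.0.16 (limma 3.58.1, R 4.3.3): TMM scaling (trimmed mean of M values), filterByExpr with a minimum count of 10, the two-sided quasi-likelihood test, and Benjamini-Hochberg adjustment over all genes tested. A gene was called at an adjusted p under 0.05, and rose or fell is written of called genes. The 9 libraries of a duration were fitted together for contrasts between arms (10598 genes at 78 h, 10693 at 48 h), and all 18 in 6 groups for contrasts of duration and interactions (11173 genes). The common biological coefficient of variation came to 0.192 for the 78 h fit, 0.181 for 48 h and 0.197 for both durations. CPM values use the TMM factors of all 18 libraries, and correlations use log2 CPM with a prior count of 2. The scripts were tested on simulated counts.

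The members and lists were chosen with earlier results of these data known. Genes were named by rule: the 3 members, genes that overlap or adjoin them, the 5 most similar profiles per member, the 3 genes of a list (2 for markers) with the highest mean CPM, and Tip60. Others are stated to have been picked after their values were seen, or are called genes that a small count refers to. Listed symbols without a match (para, VAChT, Imp, lola, Rh1, ap, vas, nos) were not analysed here. Alternatives were RLE size factors, no filter on low counts, DESeq2 1.42.0, the replicate number as a block, 1 fit of all 18 libraries and each library left out in turn. The labels number the replicates without saying what a number shares. Same-numbered Tip60dn and Tip60wt libraries at 78 h deviated together from their group means (r = 0.291, 0.354 and 0.316 over genes), which passes the level of 0.1 set for reading replicate numbers as pairs. Same-numbered Tip60dn and control libraries at 78 h did not (r = -0.044, -0.1 and -0.066). The block covered all libraries of a fit, control included. The fit with the block is given beside the fit without it.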

Additional observations from a re-analysis of the deposited data

How the results depend on the processing

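elav kept a log2 fold change of -0.997 to -0.97 in Tip60dn against Tip60wt and -1.05 to -1.02 against control at 78 h, and -1.04 to -1.03 and -1.12 to -1.09 at 48 h, under RLE, no filter, DESeq2, the replicate block and 1 fit of 18 libraries. With 1 library left out the ranges were -1.03 to -0.89 and -1.08 to -0.94 at 78 h, and -1.06 to -0.997 and -1.13 to -1.06 at 48 h. The sign of fne against Tip60wt depended on the library left out (-0.14 to 0.41 at 78 h, -0.42 to 0.30 at 48 h), and so did that of Rbp9 at 78 h against Tip60wt (-2.57e-03 to 0.48) and control (-0.44 to 0.04). No member was called under any alternative in the contrasts that were tested.

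Log2 values of members that changed sign, all uncalled, were small. With the replicate block fne was -0.0241 in Tip60wt against control at 78 h and Rbp9 4.67e-04 in control at 78 h against 48 h. elav was -4.10e-03 in Tip60dn at 78 h against 48 h without a filter, and the Rbp9 interaction of Tip60dn against control was 6.83e-03 under RLE, 2.42e-03 without a filter and 9.60e-03 by DESeq2. The replicate block changed no call of a member, and other same-numbered pairs correlated at -0.10 to 0.25. With 1 library left out, ranges across 0 were as follows for Tip60wt against control at 78 h: -0.0794 to 1.21e-03 for elav and -0.22 to 0.34 for fne. For 78 h against 48 h they were -0.0559 to 0.0802 for elav and -0.26 to 0.22 for Rbp9 in Tip60dn, -0.27 to 0.47 for fne and -0.27 to 0.0448 for Rbp9 in Tip60wt, and -0.14 to 0.18 for Rbp9 in control. For the interaction of Tip60dn against Tip60wt they were -1.93e-05 to 0.14 for elav, -0.16 to 0.58 for fne and -0.14 to 0.34 for Rbp9. For that of Tip60dn against control they were -0.41 to 0.12 for fne and -0.25 to 0.23 for Rbp9, and for that of Tip60wt against control -0.0165 to 0.0600 for elav and -0.31 to 0.0598 for Rbp9.

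Counts of called genes moved more. DESeq2 called 901 genes in Tip60wt against control at 78 h and 694 at 48 h, where edgeR called 431 and 382. For 78 h against 48 h in Tip60dn, where edgeR called 15, DESeq2 called 106, RLE 9 and the replicate block 24, and DESeq2 called 6 in Tip60wt and 22 in control. DESeq2 called 4, 32 and 3 in the interactions of Tip60dn against Tip60wt, Tip60dn against control and Tip60wt against control, where edgeR called 0. With 1 library left out, Tip60wt against control gave 203 to 981 calls at 78 h (981 without Tip60wt replicate 1, 210 and 237 without its replicates 2 and 3, and 203 and 209 without control replicates 1 and 3) and 191 to 525 at 48 h (206 and 248 without Tip60wt replicates 1 and 3, and 203 and 191 without control replicates 1 and 2). Tip60dn at 78 h against 48 h gave 0 to 35 (1 and 7 without Tip60dn replicates 2 and 3 of 78 h, 3, 0 and 35 without Tip60dn replicates 1, 2 and 3 of 48 h), control at 78 h against 48 h 0 to 10, and the interactions of Tip60dn 0 to 8 against Tip60wt and 0 to 7 against control. The causes were not tested.

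An alternative chosen after seeing the data divided the same whole-gene counts by only the exon bases free of other genes, 7048 of 10715 for elav. The elav share of the family was then 95.5% in Tip60dn, 98.0% in Tip60wt and 97.5% in control at 78 h, and 95.6%, 98.0% and 97.7% at 48 h. Counts over shared bases were not removed. The smaller divisor of elav raises its share in every group, so this is no check on the overlap. Summing elav with lncRNA:enrr was not run. Depth limits fne and Rbp9, whose intervals were wider than those of elav.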
